A study of Homo sapiens with 4 samples.

Results

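HHEX, HEMGN, MLLT3, ERG, FLI1, ETV6, MECOM, ZEB2 and NFIB are genes of hematopoietic transcription control, and their transcript levels were followed in leukemia cells with and without knockdown of LDB1. The 9 genes were chosen by name, with their levels in these libraries already known, and were looked up by symbol in a table of 28412 genes. A row was found for 8 of them, and FLI1 was not analysed here. RNA-seq had been performed on 4 libraries of the human acute promyelocytic leukemia line that the labels call NB4. Of these, 2 came from cells with the control vector sh-NC and no further treatment, and the other 2 from cells with the shRNA vector sh-LDB1 against LDB1 (LIM domain-binding protein). Both vectors were delivered by lentivirus and the infected cells were kept in puromycin, according to the methods of the study. The study designed 3 shRNAs against LDB1, and the sources used here do not say which one was sequenced, nor whether the replicates came from separate cultures. P-values therefore measure only the spread between these samples, which may be technical.

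LDB1 has no DNA-binding domain of its own. It dimerises and holds together complexes in which LMO2 bridges it to GATA factors and to TAL1 with its E-protein partners, and such complexes sit on promoters and enhancers of blood stem cells and red cell precursors. The ETS proteins ERG and FLI1 occupy many of the same elements with RUNX1, GATA2, TAL1, LYL1 and LMO2. The homeobox factor HHEX, the acyl-lysine reader MLLT3 (AF9), the repressors ETV6, MECOM and ZEB2 and the nuclear factor NFIB are known for roles in hematopoietic stem cells or in leukemia, and HEMGN (hemogen) is a nuclear protein of blood progenitors and erythroid cells.

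Reads recovered from the deposited FPKM (fragments per kilobase of transcript and per unit of library depth) summed to 14245455 to 16693487 a library. By library these were 16693487 and 15256615 under sh-NC, against 15156423 and 14245455 under sh-LDB1. The library totals implied by the FPKM were 16182674 and 14746656 under sh-NC, against 16021191 and 15131588 under sh-LDB1. These totals lay under the recovered reads in both sh-NC libraries and above them in both sh-LDB1 libraries. The part of this offset in the calls was not tested. LDB1 itself (chromosome 10, 102106489 to 102120368, minus strand, GRCh38) was at 135.1 and 120.1 FPKM under sh-NC, against 10.2 and 9.47 FPKM under sh-LDB1, so 7.73% of the control level remained (log2 difference -3.56, standard error 0.0765, limma adjusted p = 6.93e-05). The summed markers of the labelled cell type lay under those of erythroid cells. Of 10 promyelocyte and granulocyte markers 7 had values, and 5 were above 1 FPKM in every library. The 7 summed to 37.7 to 38.6 FPKM under sh-NC, against 75.1 to 75.8 FPKM under sh-LDB1. CFD gave the largest part, with 26.9 FPKM in each sh-NC library and 35.6 and 38.7 FPKM in sh-LDB1. ELANE (neutrophil elastase) was listed at 0 in 3 of the 4 libraries. All 14 erythroid markers had values, with a summed level of 4003 and 4167 FPKM under sh-NC, against 388.5 and 352.4 FPKM under sh-LDB1. The libraries are therefore named below by their labels only. The summed markers of megakaryocytes (2.97 to 4.38 FPKM), monocytes (0.264 to 0.833), B cells (0.748 to 1.91) and endothelial cells (0.183 to 0.701) were low in every library. The T cell markers summed to 21.4 to 24.5 FPKM under sh-NC, against 47.2 to 50.4 FPKM under sh-LDB1, most of it from CD3D.

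The sequences shown are of the most changed members and of ETV6, which was higher in sh-LDB1. For each, 250 bases before the start were taken from RefSeq (GRCh38.p14). HEMGN has an inner and an outer start in that table, and the stretch of the inner start lies within the span of the gene. Each line is written 5′ to 3′ on the strand of the gene. Capitals mark the GATA motif AGATAA, the RUNX motif TGTGGT and the ETS motif CCGGAAG, read on both strands. Only these letters are marked, and other forms of these motifs are not.
HEMGN inner start, chr9:97938173-97938422, minus strand: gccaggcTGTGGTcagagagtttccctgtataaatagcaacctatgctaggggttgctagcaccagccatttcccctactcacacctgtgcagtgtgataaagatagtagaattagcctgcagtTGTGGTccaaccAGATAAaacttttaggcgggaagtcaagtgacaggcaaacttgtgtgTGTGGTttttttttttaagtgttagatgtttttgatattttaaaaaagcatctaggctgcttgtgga
HEMGN outer start, chr9:97944853-97945102, minus strand: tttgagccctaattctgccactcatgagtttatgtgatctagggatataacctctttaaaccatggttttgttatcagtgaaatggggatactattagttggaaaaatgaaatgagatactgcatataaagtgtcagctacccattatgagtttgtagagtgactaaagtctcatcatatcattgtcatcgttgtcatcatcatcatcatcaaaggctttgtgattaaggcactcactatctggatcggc
HHEX, chr10:92689705-92689954, plus strand: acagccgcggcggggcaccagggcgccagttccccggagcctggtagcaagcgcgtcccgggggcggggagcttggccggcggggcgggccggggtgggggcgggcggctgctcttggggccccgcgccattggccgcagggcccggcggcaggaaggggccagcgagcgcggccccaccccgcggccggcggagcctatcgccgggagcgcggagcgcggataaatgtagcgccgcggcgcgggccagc
MLLT3, chr9:20622500-20622749, minus strand: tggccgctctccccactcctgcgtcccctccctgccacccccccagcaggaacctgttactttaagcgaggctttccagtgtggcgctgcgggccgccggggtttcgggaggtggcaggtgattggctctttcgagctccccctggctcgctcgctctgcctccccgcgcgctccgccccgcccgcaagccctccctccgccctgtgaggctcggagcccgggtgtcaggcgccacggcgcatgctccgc
ETV6, chr12:11649424-11649673, plus strand: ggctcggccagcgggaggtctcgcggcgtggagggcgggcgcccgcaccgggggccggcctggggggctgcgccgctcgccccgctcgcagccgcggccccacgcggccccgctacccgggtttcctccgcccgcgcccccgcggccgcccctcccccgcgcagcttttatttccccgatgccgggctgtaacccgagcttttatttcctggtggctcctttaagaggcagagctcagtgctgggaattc

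The stretches differed in composition. With the 50 bases after the start added, G and C made up 80.3% of the HHEX window, 69% of ETV6, 68% of MLLT3, 42.3% of the inner HEMGN window and 37.3% of the outer one, against a median of 58.7% over 35116 windows of 300 bases. The inner HEMGN window held 1 GATA motif and 3 RUNX motifs. Those of HHEX, MLLT3 and ETV6 and the outer one of HEMGN held none of the capitalised motifs. Over the 23 windows of the 8 genes, AGATAA stood in 5 (in ERG, HEMGN, MECOM and NFIB, where a pair of overlapping ERG windows share 1 copy), against 10.3% of all windows. TGTGGT stood in 3 member windows, in HEMGN, MECOM and NFIB, and in 13.1% of all windows. CCGGAAG stood in none of the 23 and in 10.3% of all windows. An E-box (CANNTG) stood in 18 of the 23 and in 68.7% of all windows. The E-box and GATA pair that LMO2 and LDB1 complexes are known to bind, searched as CTG and AGATAA with 8 or 9 bases between them, stood in 0 of the 23 windows, and at these spacings in 0.273% and 0.185% of all windows. Some of these motifs can overlap one another, and a match describes the letters of a window only.

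Results showed that 6 of the 8 genes were lower and 2 were higher in sh-LDB1, and that the 2 groups were without overlap for each of the 8. Over the 13300 genes tested, whose mean was 1 FPKM or more, 84.6% lay without overlap, 46.3% on the lower side and 38.3% on the higher side. Of the 6 members above that mean, 3 were lower past the threshold of a limma adjusted p below 0.05 and a fold below 0.5 on the log2(FPKM + 1) scale, and 0 were higher past a fold of 2. The share of all genes past that threshold was 10.3% for lower, 9.5% for higher and 19.8% in either direction. The members were chosen with these same differences known, so their differences are given as a description with no test, and nothing is read from the count. The median log2 difference of the 6 was -1.34 and that of all genes tested was -0.08. Nothing is read from this gap either, for the same reason. In bulk RNA, fewer cells of a type and less RNA per cell cannot be told apart.

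**Figure D1:**
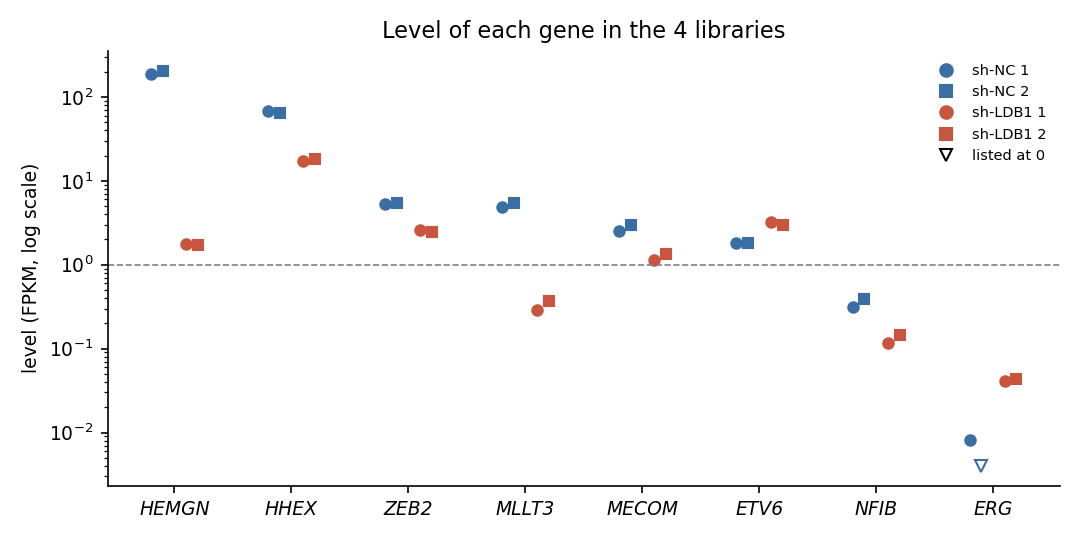
Level of each of the 8 genes (FPKM, log axis) in the 4 libraries, with sh-NC in blue, sh-LDB1 in red, circles for replicate 1, squares for replicate 2, and an open triangle for a value listed at 0. HEMGN went from the highest level in sh-NC to a level under 2 FPKM, ETV6 and ERG were the genes that were higher in sh-LDB1, and the dashed line is the 1 FPKM filter on the mean.

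In the sh-NC libraries the order of levels per length was HEMGN, HHEX, ZEB2, MLLT3, MECOM, ETV6, NFIB and ERG. ZEB2 (5.27 and 5.43 FPKM) and MLLT3 (4.82 and 5.41 FPKM) overlapped, and no other neighbours in that order did. HEMGN lay above 98.7% of the genes tested in sh-NC, HHEX above 95% and MLLT3 above 44.8%. In sh-LDB1 the order was HHEX, ETV6, ZEB2, HEMGN, MECOM, MLLT3, NFIB and ERG, and there no neighbours in the order overlapped.

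HEMGN (ENSG00000136929; chromosome 9, 97926791 to 97944856, minus strand) was at 185.7 and 206.3 FPKM in sh-NC replicates 1 and 2, and at 1.77 and 1.71 FPKM in sh-LDB1 replicates 1 and 2. These levels rested on 7194 and 7283 reads in sh-NC and on 68 and 62 reads in sh-LDB1. Both sh-LDB1 libraries were low and close to each other, and the 195.995 ± 14.6 FPKM of sh-NC (SD, n = 2) stood against 1.74 ± 0.0434 FPKM (SD, n = 2). The share that remained was 0.889%. The level was 112.5-fold lower, and the log2 difference of -6.16 (standard error 0.0661) was the lowest of the 13300 genes. Among the stretches printed above, AGATAA stood only in that of the inner HEMGN start. Other forms of a GATA site were not searched, and a part of the motif in the HEMGN difference was not tested. The erythroid markers were lower as well. All 13 that were tested were lower past the threshold, against 10.3% of all genes. HBZ (embryonic zeta globin) was at 1543 and 1600 FPKM under sh-NC, against 58.9 and 61.3 FPKM under sh-LDB1. The part of these erythroid markers in the HEMGN difference was not tested. Of 6 promyelocyte and granulocyte markers tested, 3 were higher past the threshold and 0 lower (9.5% and 10.3% of all genes).

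HHEX (ENSG00000152804; chromosome 10, 92689955 to 92695647, plus strand) encodes a homeobox repressor of early blood and endothelial precursors. Its level was 67.3 and 64.3 FPKM under sh-NC, against 17.4 and 18.2 FPKM under sh-LDB1. The reads behind these levels were 2749, 2395, 702 and 696. The mean went from 65.8 ± 2.09 to 17.8 ± 0.61 FPKM (SD, n = 2 each), so that 27.0% remained, and single pairs of libraries gave 25.8% to 28.3%. The log2 difference was -1.83 with a standard error of 0.0496, given as a description because HHEX was chosen with these values known.

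MLLT3 (ENSG00000171843; chromosome 9, 20341669 to 20622499, minus strand) encodes AF9, which reads acylated histone H3, recruits elongation factors and DOT1L, and maintains human hematopoietic stem cells in culture. MLLT3 was at 4.82 and 5.41 FPKM under sh-NC, against 0.292 and 0.374 FPKM under sh-LDB1. It was counted by 634 and 648 reads in sh-NC and by 38 and 46 reads in sh-LDB1. Of the control mean of 5.11 ± 0.414 FPKM, 0.333 ± 0.0581 FPKM remained (SD, n = 2 each), a share of 6.51%. That is a 15.4-fold lower level, about as deep as the knockdown of LDB1 itself. The log2(FPKM + 1) scale understates it because the sh-LDB1 level lies under the pseudocount. On that scale the difference was -2.20 (standard error 0.111), and on recovered reads with voom it was -3.94.

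**Figure D2:**
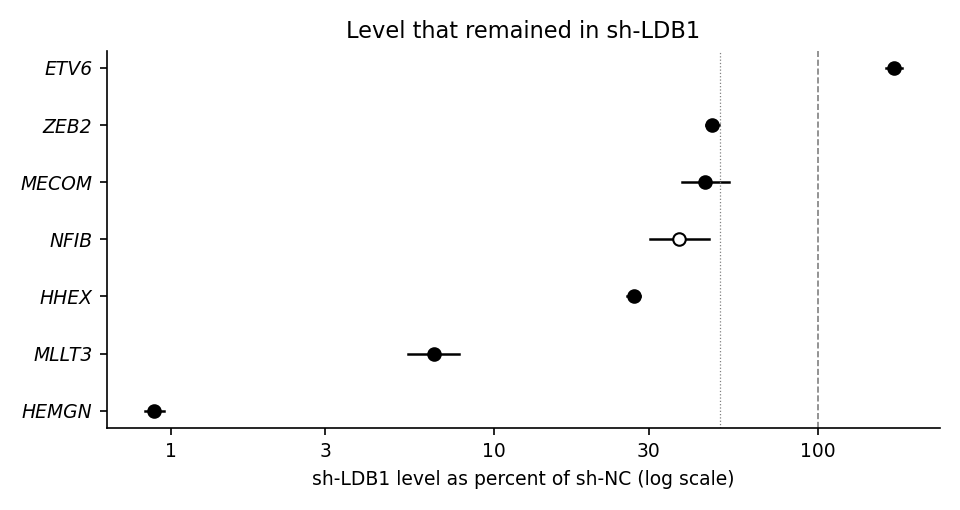
Level in sh-LDB1 as percent of sh-NC (log axis) for the 7 genes with enough reads, as the ratio of group means, with lines from the lowest to the highest of the 4 ratios between single libraries. HEMGN kept 0.889%, MLLT3 6.51% and HHEX 27.0%, while ETV6 lay at 172.3%; the open circle marks NFIB, which was under the filter, the dashed line is 100% and the dotted line 50%.

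Among the repressors, ZEB2 and MECOM were lower by less. ZEB2 (ENSG00000169554; chromosome 2, 144364364 to 144521057, minus strand) is a zinc finger protein that binds E-boxes. The ZEB2 level was 5.27 and 5.43 FPKM under sh-NC, against 2.60 and 2.45 FPKM under sh-LDB1, from 930 to 2137 reads a library. The level that remained was 47.2% of 5.35 ± 0.116 FPKM (SD, n = 2), and the log2 difference was -0.85 (standard error 0.0699). ZEB2-AS1, which overlaps ZEB2 on the opposite strand, had 14 and 16 reads under sh-NC and none in either sh-LDB1 library, at least 5.06-fold lower against a floor of 3 reads per library. Whether the counting used strand is not stated, so reads from the pair cannot be told apart.

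MECOM (ENSG00000085276; chromosome 3, 169083499 to 169663775, minus strand) encodes EVI1 and the longer MDS1-EVI1 protein, the first a known driver of high-risk leukemia, and 1 value per gene does not separate them. Its level was 2.53 and 2.99 FPKM under sh-NC, against 1.14 and 1.34 FPKM under sh-LDB1. Between 166 and 401 reads a library were behind these levels. The mean of sh-LDB1, 1.24 ± 0.145 FPKM (SD, n = 2), was 45.0% of sh-NC, with single pairs from 38.1% to 53.2%. The log2 difference was -0.74 (standard error 0.12). RPL22P1, a processed pseudogene on the same strand within MECOM, was at 75.8 and 68.6 FPKM under sh-NC, against 65.6 and 55.9 FPKM under sh-LDB1, and reads that could belong to either gene are not told apart by the table.

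ETV6 (ENSG00000139083; chromosome 12, 11649674 to 11895377, plus strand), an ETS repressor that adult stem cells need and that is a frequent fusion partner in leukemia, went the other way. It was at 1.79 and 1.81 FPKM under sh-NC, against 3.26 and 2.94 FPKM under sh-LDB1, from 189 to 370 reads a library. Both sh-LDB1 libraries lay above both sh-NC libraries, and the mean of 3.10 ± 0.228 FPKM was 172.3% of the control mean of 1.80 ± 0.0149 FPKM (SD, n = 2 each). The log2 difference was 0.55 (standard error 0.0912). It was the only member above the filter that was higher.

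NFIB and ERG were too low to be tested. NFIB (ENSG00000147862; chromosome 9, 14081843 to 14398983, minus strand), a CTF/NFI factor, was at 0.315 and 0.388 FPKM under sh-NC, against 0.117 and 0.145 FPKM under sh-LDB1, from 65, 73, 24 and 28 reads. The groups did not overlap, and 37.3% of the control level remained, with single pairs from 30.3% to 46.1%. ERG (ENSG00000157554; chromosome 21, 38380027 to 38661780, minus strand), an ETS factor of the stem cell heptad, had 1 and 0 reads in sh-NC and 5 in each sh-LDB1 library, at 0.00814 and 0 and at 0.0411 and 0.0435 FPKM. The ratio of sh-LDB1 to sh-NC was 9.93, from 1 read against 10. Its size cannot be resolved from so few reads, and ERG was chosen with these values known. ERG was close to the limit of detection in every library, and FLI1, its nearest relative, has no value here.

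How far each difference depended on the scale was examined next. Moving the pseudocount from 1 to 0.1 or 0.01, or fitting the recovered reads with voom, brought ZEB2 to a log2 difference of up to -1.08 and MECOM of up to -1.15, which put 5 members past the threshold on the lower side in place of 3. Scaling each library to the same summed FPKM moved the median of all genes by 0.14 and turned the calls from 1371 lower and 1264 higher (52.0% lower) to 1001 lower and 1602 higher (38.5% lower). ETV6 then stood at 0.67 and MECOM at -0.63. None of the 6 members above the filter changed sign under the 12 alternatives that gave them a difference. Over these, HEMGN ran from -6.80 to -6.02, HHEX from -1.89 to -1.66, MLLT3 from -3.94 to -2.10 and ETV6 from 0.49 to 0.78.

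**Figure D3:**
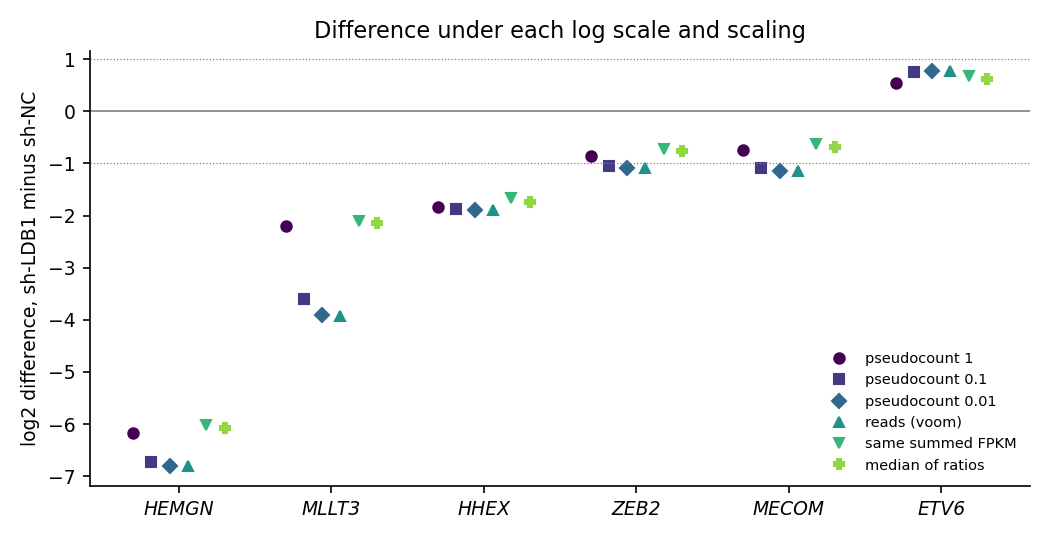
Log2 difference (sh-LDB1 minus sh-NC) of the 6 members above the filter under pseudocounts of 1, 0.1 and 0.01 FPKM, under voom on recovered reads and under both other scalings, with dotted lines at a fold of 2 in each direction. The order of HEMGN, MLLT3 and HHEX was the same in each setting, MLLT3 moved most (-3.94 to -2.10), and ZEB2 and MECOM crossed the lower line at the smaller pseudocounts and under voom.

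Genes whose pattern over the 4 libraries was nearest to each member were then listed, by the Euclidean distance between log2(FPKM + 1) values after each gene's own mean was subtracted. The distance rests on 4 libraries in 2 groups, so it mostly reads the size of the group difference. Nearest to HEMGN were FAM178B (distance 1.07, 48.5 and 43.6 to 0.299 and 0.41 FPKM) and HBZ (1.48), which were the widest nearest distances of the 6 members compared. PITHD1 (0.0146, 40.8 and 39.6 to 10.3 and 10.9 FPKM) and MTERF2 (0.0325) were nearest to HHEX. The nearest to MLLT3 were DCUN1D5 (0.0506) and MIR5581 (0.0521), the latter from 2 to 12 reads a library. ASB16 (0.0138) and CRISP3 (0.0148) were nearest to ETV6, ASF1A (0.00804) and SLC7A11 (0.0182) to MECOM, and GTPBP4 (0.00985) and ATAD2B (0.0238) to ZEB2.

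To see whether the difference of a member was shared along the chromosome, the nearest gene above the filter was taken on each side, by the distance between start sites. Of 16 neighbours, 2 were lower and 0 higher past the threshold (10.3% and 9.5% of all genes), and their median log2 difference was -0.36. ANP32B, a histone chaperone gene 38.5 kb from HEMGN, was at 438.9 and 428.1 FPKM under sh-NC, against 148.9 and 143.0 FPKM under sh-LDB1. It fell by 1.56 on the log2 scale (standard error 0.0442, limma adjusted p = 8.31e-05), while TRMO, 22.4 kb away on the other side of HEMGN, was at 2.46, 3.21, 3.45 and 2.81 FPKM (log2 difference 0.11, adjusted p = 0.525). HHEX lay between the mitotic kinesin gene KIF11 (115.9 kb, -0.62, limma adjusted p = 0.00152) and the exocyst gene EXOC6 (136.9 kb, -0.46, adjusted p = 0.0057), both lower by less than HHEX. MLLT3 had no close expressed neighbour: AL158206.1 lay 1169 kb away (-0.45, limma adjusted p = 0.0449) and CAAP1 6270 kb away (-0.20, adjusted p = 0.0532). Of the 6 neighbours of these 3 members, 1 was past the threshold.

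The neighbours of the remaining members were mixed. MYNN beside MECOM was at 2.90 and 2.86 FPKM under sh-NC, against 3.08 and 3.31 FPKM under sh-LDB1 (log2 difference 0.11, limma adjusted p = 0.26), and RPL22P1 had a difference of -0.25 (adjusted p = 0.08). ACVR2A, an activin receptor gene 3323 kb from ZEB2, was higher by 0.87 (limma adjusted p = 0.00711), and AC016710.1 on its other side was lower by 0.52. SMIM10L1, 478.5 kb from ETV6, was lower by 0.49 (limma adjusted p = 0.00491). AC007537.1, a processed pseudogene 461.5 kb on the other side, had 18, 13, 7 and 0 reads, and its difference of -1.40 (adjusted p = 0.0425) was past the threshold under only 5 of 17 alternatives. ETS2 beside ERG (-0.20), DSCR10 beside ERG (0.81), ZDHHC21 beside NFIB (-0.27) and RN7SL5P beside NFIB (-0.63) did not reach a limma adjusted p of 0.05, and RN7SL5P was low in sh-LDB1 replicate 2 alone (11.1 FPKM against 30.2 to 33.8).

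**Figure D4:**
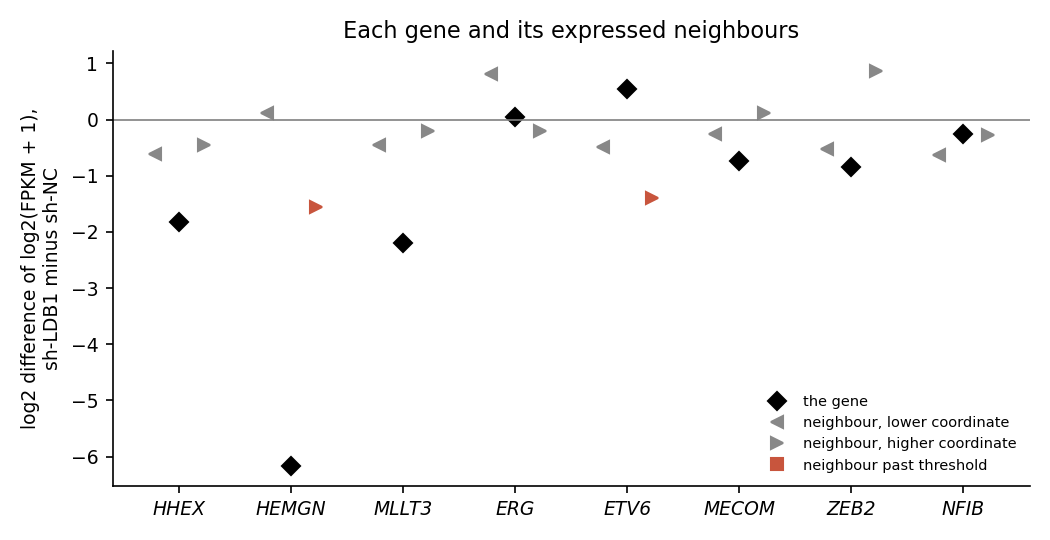
Log2 difference of log2(FPKM + 1), sh-LDB1 minus sh-NC, of each of the 8 genes (black diamonds) and of its nearest expressed gene at lower and higher coordinates (triangles, red where past the threshold). HEMGN at -6.16 stands beside ANP32B at -1.56 and TRMO at 0.11, and the 2 red triangles are ANP32B and AC007537.1.

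The pathways around the members were followed in 7 lists of relatives and partners that hold no member. Of 132 listed genes 89 were tested, and a limma adjusted p below 0.05 was reached by 27 on the higher side and 38 on the lower side (29.9% and 37.4% of all genes). Past the fold threshold 5 were higher and 10 lower (9.5% and 10.3% of all genes). When the libraries were scaled to the same summed FPKM, 8 were higher and 7 lower. The calls over all genes turned the same way, to 1602 higher and 1001 lower. The shares of all genes given here also stand beside the counts of each list below. The median log2 difference was -0.12, against -0.08 over all genes.

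Of the 22 other stem cell transcription factors 13 were tested, with 9 lower and 2 higher at a limma adjusted p below 0.05, 5 and 1 past the fold, and a median of -0.61. MYB, a progenitor factor, went from 24.5 and 25.3 FPKM under sh-NC down to 3.41 and 3.07 FPKM under sh-LDB1. It fell by 2.61 on the log2 scale (standard error 0.0639, limma adjusted p = 7.46e-05). GFI1B, a repressor of erythroid and megakaryocytic cells, fell by 2.55 and LMO2, the partner of LDB1, by 2.19 (limma adjusted p = 7.41e-05 for both). The other genes past the threshold, named here after their values were seen, were TAL1 (-2.10), LYL1 (-1.37) and CBFB (1.02), the partner of RUNX1. CBFB was under the fold threshold without sh-NC replicate 2, at 0.98. The low-level factors MEIS1, HLF and PRDM16 were under 1 FPKM in every library and were not tested.

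For the ETS family, of which ERG, FLI1 and ETV6 are members, 16 of 25 other genes were tested, with 7 higher and 3 lower (limma, adjusted p below 0.05) and a median of 0.20. SPI1 (PU.1), the factor of myeloid and lymphoid fate, was at 10.5 and 10.7 FPKM under sh-NC, against 34.3 and 35.3 FPKM under sh-LDB1. It rose by 1.62 (standard error 0.0442, limma adjusted p = 8.31e-05). ETV1 was also past the fold on the higher side (1.16, limma adjusted p = 0.00148), chosen after its values were seen, and 0 were past it on the lower side. The repressor ETV3 was higher by 0.93 (limma adjusted p = 0.000325) and ETV5 lower by 0.62 (adjusted p = 0.00134).

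The genes listed with MLLT3 went in both directions. They belong to the elongation and DOT1L complexes or are linked to them, as HEXIM1 is. Of 22 genes 19 were tested, with 9 higher and 4 lower (limma, adjusted p below 0.05), 1 and 1 past the fold, and a median of 0.21. HEXIM1, which holds the elongation kinase inactive, rose from 32.7 and 29.6 FPKM to 66.1 and 65.8 FPKM (log2 difference 1.06, standard error 0.0611, limma adjusted p = 0.00027). Without sh-NC replicate 2 it was under the fold threshold at 0.99. MLLT10 (AF10), a cofactor of DOT1L, fell by 1.00 (limma adjusted p = 0.000265), right at the fold threshold, which it missed under 5 of 17 alternatives. DOT1L, the histone H3 methyltransferase that AF9 recruits, was higher by 0.63 (limma adjusted p = 0.000427), and MLLT1 (ENL), the paralog of MLLT3, by 0.25 (adjusted p = 0.0289).

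**Figure D5:**
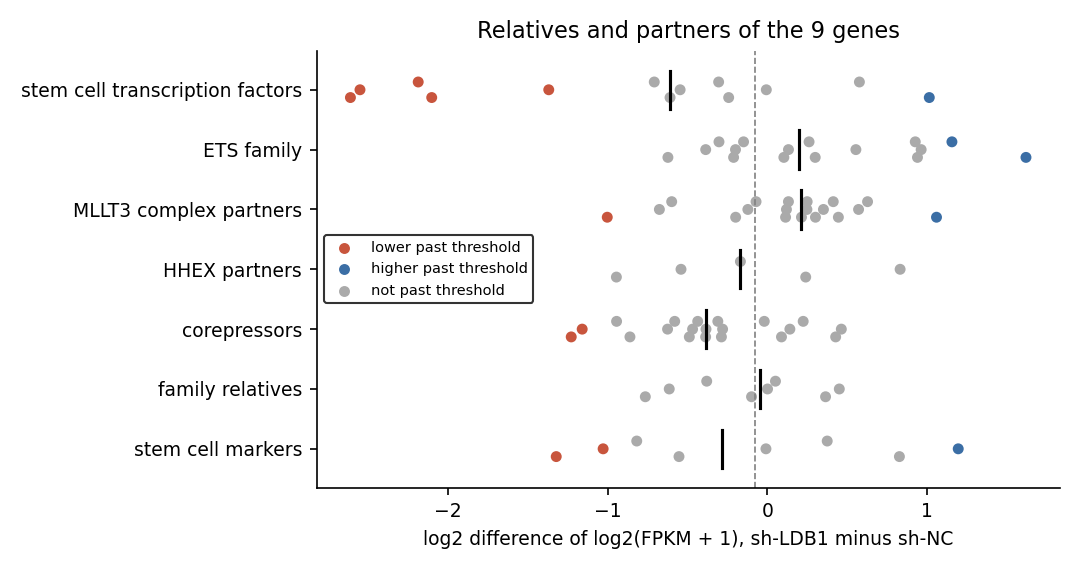
Log2 difference of log2(FPKM + 1), sh-LDB1 minus sh-NC, of each tested gene of the 7 lists (points), with the list median (black bar) and the median of all genes (-0.08, dashed line). The stem cell transcription factors have their median at -0.61 and the ETS family at 0.20, and the farthest points are MYB at -2.61 and SPI1 at 1.62.

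The proteins known to work with HHEX and with the repressors were also mixed. Of 8 HHEX partners 5 were tested, with 2 higher and 2 lower (limma, adjusted p below 0.05), 0 past the fold and a median of -0.17. Within the Groucho corepressors, TLE2 was at 12.2 in both sh-NC libraries and at 22.4 and 22.5 FPKM in sh-LDB1 (log2 difference 0.83, limma adjusted p = 0.000209), while TLE3 was lower by 0.95 (adjusted p = 0.00104). EIF4E, a cap-binding protein listed as a partner of HHEX, was lower by 0.54 (limma adjusted p = 0.00334). Of 22 corepressor genes 20 were tested, with 3 higher and 14 lower (limma, adjusted p below 0.05) and a median of -0.38. Past the fold, 2 were lower and 0 higher. RBBP4 (-1.23, limma adjusted p = 0.000145) and RBBP7 (-1.16, adjusted p = 0.000175), histone chaperones of the NuRD and Polycomb complexes, fell past the fold threshold. Both calls were lost when limma tested against a fold of 2, and that of RBBP7 also under the same-sum scaling at -0.99. KDM1A (LSD1), the demethylase that GFI1B recruits, was lower by 0.94 (limma adjusted p = 0.000152).

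Of 11 relatives of ZEB2, MECOM and NFIB 8 were tested, with 2 higher and 2 lower (limma, adjusted p below 0.05), 0 past the fold and a median of -0.05. PRDM4 was lower by 0.76 (limma adjusted p = 0.00108) and PRDM2 by 0.61 (adjusted p = 0.00203), both of the family of MECOM. NFIC was higher by 0.37 (limma adjusted p = 0.00408) and NFIX by 0.45 (adjusted p = 0.0054), both at higher levels per length than NFIB in every library, and ZEB1 had a difference of -0.38 (adjusted p = 0.0674). Of 23 surface and other markers of stem cells 8 were tested, with 2 higher and 4 lower (limma, adjusted p below 0.05) and a median of -0.28. SPN (CD43) fell by 1.03 (limma adjusted p = 0.00025), a call lost under 5 of 17 alternatives, ENG (endoglin) rose by 1.197 from 1.04 ± 0.129 to 3.67 ± 0.232 FPKM (SD, n = 2 each; adjusted p = 0.000831), and PROCR (the protein C receptor) was higher by 0.83 (adjusted p = 0.000309). KIT, the receptor of stem cell factor, was named after its values were seen. It went from 2.57 and 2.66 FPKM to 0.449 and 0.44 FPKM (log2 difference -1.32, limma adjusted p = 0.000876).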

How the data were processed

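RNA was measured in 4 libraries, 2 sh-NC and 2 sh-LDB1, grouped by their sample titles. The authors mapped reads with HISAT2 2.0.5 to hg38 (submitters' processing notes) and deposited 1 table of FPKM per gene and library, with replicates not pooled and 0 columns of no sample. The counter, annotation and use of strand are not given in the sources used here. Because FPKM steps are whole multiples of 1 read, reads were recovered with gene lengths from GENCODE release 44 (28193 of 28412 genes found). Of values above 0, 99.9% came out within 0.02 of a whole read, in totals of 14245455 to 16693487 reads. The gene length implied by the recovered reads was within 10% of the annotated length for 87.4% of genes. LDB1 (2790 against 3776 bases) and EIF4E (14067 against 4971) were outside it, and read numbers of such genes are less sure. The 13300 genes whose mean reached 1 FPKM were taken as log2(FPKM + 1), whose folds understate changes of low genes, and compared with limma 3.58.1 in R 4.3.3 (eBayes with trend, no replicate block, Benjamini-Hochberg adjustment). The threshold was an adjusted p below 0.05 and a fold above 2 or below 0.5. The authors called changed genes with DESeq2, which needs counts and was not used here. Tables and plots were made with numpy 2.4.6, pandas 2.3.3, scipy 1.17.1 and matplotlib 3.10.9 under Python 3.11.15. Read recovery and the fit were tested on simulated data.

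The members and lists were chosen with earlier results of these data known. Besides LDB1, the members and their neighbours, the genes named are the 3 of each list with the smallest adjusted p and the 2 nearest in pattern to each member above the filter. Paralogs of the members were also named. Alternatives were other pseudocounts, filters, scalings and thresholds, no trend, a replicate block, voom on recovered reads and each library left out. A fit without 1 library assumes that the lone sample varies like the other group. Promoter windows matched 8 members by symbol (RefSeq, GRCh38.p14).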

Additional observations from a re-analysis of the deposited data

How the results depend on the processing

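The log2 differences of HHEX, HEMGN, MLLT3, ETV6, MECOM, ZEB2 and LDB1 kept their direction under the 12 alternatives that gave them a value. Counts of calls depended on the threshold. With no fold threshold 3983 genes were higher and 4978 lower, and treat against a fold of 2 gave 568 and 581. Members lower past the threshold numbered 5 under voom, under pseudocounts of 0.1 and 0.01 and with no fold threshold, which also gave 1 higher member. The related lists held 8 higher genes under voom, either smaller pseudocount and either other scaling, 1 higher and 5 lower under treat, and 27 higher and 38 lower with no fold threshold. The 1 left higher under treat was SPI1, and the 5 left lower were GFI1B, LMO2, MYB, TAL1 and LYL1. Higher neighbours numbered 2 under voom and 1 under either smaller pseudocount or with no fold threshold. Lower neighbours numbered 7 with no fold threshold, and 1 under an adjusted p of 0.001, no trend, treat, either other scaling, a mean of 0.1 FPKM, no filter and either smaller pseudocount.

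With each library left out in turn, the genes past the threshold ranged from 1251 to 1289 higher and from 1352 to 1430 lower, higher neighbours from 0 to 1 (1 without sh-NC replicate 2) and lower neighbours from 1 to 3 (3 without sh-LDB1 replicate 1). TRMO ranged from -0.032 to 0.25 (below 0 without sh-NC replicate 1) and RN7SL5P from -1.39 to 0.13 (above 0 without sh-LDB1 replicate 2). Neither had passed the test. The cause of these changes was not tested.

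With the replicate number as a block, 1274 genes were higher and 1386 lower, 3 members were lower and 0 higher, and no call of a member, a listed gene or a neighbour past the fold threshold changed, while at an adjusted p of 0.05 AL158206.1 (-0.45) was lost and RPL22P1 (-0.25) was gained. The deviations of same-numbered libraries correlated at 0.0196 over 13300 genes, so the numbers were not taken to pair the samples. With 2 libraries a group and 0 or 1 read in sh-NC, the size of the ERG difference could not be resolved, and NFIB was under the filter.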
